A study of Mus musculus with 8 samples.

Results

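The p21-activated kinases (PAKs) and the lemur kinases are 2 families of protein kinases, and 8 of their genes were followed among the 20976 genes of the table: Pak1, Pak2, Pak3, Pak4, Pak6, Aatk, Lmtk2 and Lmtk3. They were taken by gene name. The families were chosen by the scaled reads of Pak3 and Aatk, which were higher in Cre libraries than in GFP libraries, so the Cre and GFP values of the members are given as a description, with no p-value, and counts of calls among them only beside the share over all genes. RNA came from muscle stem cells of mice with loxP sites in both copies of Chd4, sorted by flow cytometry, expanded in medium with serum and basic FGF, infected with adenovirus in culture and snap frozen. The 4 Cre libraries came from cells given an adenovirus with Cre recombinase, which deletes exons 12 to 21 of Chd4, whose product is an ATPase that moves nucleosomes in the NuRD complex. The 4 GFP libraries came from cells of the same genotype given an adenovirus with GFP. Each group came from 4 mice. Cre was never given to cells without loxP sites in Chd4, so effects of Cre itself and of Chd4 loss cannot be told apart. The sources used here give neither age nor sex.

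PAKs are serine/threonine kinases that are switched on when the GTP-bound form of Rac or Cdc42 binds to them, and they act on the actin cytoskeleton, in part through LIM kinase and cofilin. Among the members followed here, Pak1, Pak2 and Pak3 belong to group I, and Pak4 and Pak6 to group II. Pak3 is known chiefly from neurons, where it acts in dendritic spines, and human PAK3 mutations cause X-linked intellectual disability. Pak1 and Pak2 are the group I kinases known from skeletal muscle. The lemur kinases are membrane-bound kinases of endosomes: Aatk, the apoptosis-associated tyrosine kinase, and its relatives Lmtk2 and Lmtk3 are best known from brain, where Aatk acts in axon and dendrite growth and Lmtk2 in transport along endosomes.

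The start regions of Pak3 and Aatk are shown because these genes had the largest differences among the members that could be fitted, each with a relative whose level differed less, Pak1 and Lmtk2. Each sequence runs from 250 bases before to 50 bases after the RefSeq start site nearest the 5′ end of the gene in the table (RefSeq, GRCm38.p6). Capitals mark the E-box CANNTG, a motif that myogenic and other basic helix-loop-helix factors can bind, and the GC box GGGCGG, both searched on both strands.
Pak3, chrX:143518341-143518640, plus strand: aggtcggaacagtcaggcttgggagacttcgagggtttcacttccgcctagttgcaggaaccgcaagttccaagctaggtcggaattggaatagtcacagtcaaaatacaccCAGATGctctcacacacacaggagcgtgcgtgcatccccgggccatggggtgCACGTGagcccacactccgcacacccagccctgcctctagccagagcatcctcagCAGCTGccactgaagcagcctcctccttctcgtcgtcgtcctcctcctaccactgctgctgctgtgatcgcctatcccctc
Pak1, chr7:97788291-97788590, plus strand: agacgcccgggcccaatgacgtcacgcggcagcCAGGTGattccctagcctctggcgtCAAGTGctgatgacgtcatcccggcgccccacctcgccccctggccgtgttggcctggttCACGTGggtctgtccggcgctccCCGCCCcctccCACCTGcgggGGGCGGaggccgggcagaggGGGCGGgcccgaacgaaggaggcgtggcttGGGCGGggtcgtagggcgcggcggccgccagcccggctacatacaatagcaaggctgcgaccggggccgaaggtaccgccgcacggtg
Aatk, chr11:120047096-120047395, minus strand: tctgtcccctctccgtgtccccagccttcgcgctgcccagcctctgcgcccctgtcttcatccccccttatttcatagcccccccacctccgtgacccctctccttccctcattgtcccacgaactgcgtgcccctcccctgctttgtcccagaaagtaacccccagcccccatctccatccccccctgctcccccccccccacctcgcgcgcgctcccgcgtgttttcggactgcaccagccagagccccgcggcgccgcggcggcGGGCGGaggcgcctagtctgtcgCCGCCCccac
Lmtk2, chr5:144100111-144100410, plus strand: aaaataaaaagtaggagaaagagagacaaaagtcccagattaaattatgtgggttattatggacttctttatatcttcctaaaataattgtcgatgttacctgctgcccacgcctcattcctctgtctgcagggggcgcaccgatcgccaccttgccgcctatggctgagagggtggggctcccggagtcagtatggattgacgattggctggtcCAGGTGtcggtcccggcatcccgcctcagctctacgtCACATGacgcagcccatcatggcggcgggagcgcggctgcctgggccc
The Pak3 window held 3 E-boxes, 1 of them CAGCTG, and no GC box. The Pak1 window held 4 E-boxes and 4 GC boxes, the Aatk window no E-box and 2 GC boxes, and the Lmtk2 window 2 E-boxes and no GC box. Of 32851 windows of the same length, 72.3% held a CANNTG, 16.3% a CAGCTG and 35.7% a GC box. The capitals share no letters between the 2 motifs in these windows. CG dinucleotides numbered 14 in the Pak3 window, 35 in Pak1, 25 in Aatk and 17 in Lmtk2, against a median of 7 over all windows. The half-site TTCAGCACC, the first part of the element bound by the neuronal gene repressor REST, was in 0 of the 7 member windows searched and in 0.371% of all windows. Pak3 has 3 RefSeq start windows and Aatk 4, and the counts per gene do not tell which start was used.

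Chd4 was measured first, as the deleted gene. It had 3686, 5480, 5010 and 5134 scaled reads in Cre libraries 1 to 4, against 17886, 15904, 16634 and 20121 in GFP libraries 1 to 4, and fell by 1.88 ± 0.14 on the log2 scale (SE, n = 4 each; limma, adjusted p = 0.00328). The groups did not overlap, as the labels require. Scaled reads are read counts that had been divided by a factor for each library and rounded before deposition. Their totals lay between 27897860 and 28876348, and the depth before scaling, which could be estimated for 7 of the 8 libraries, lay between 23.3 M and 38.0 M reads. Libraries of equal number in Cre and GFP moved together within their groups (correlations of 0.820 to 0.908) and are described as pairs below. Calls and adjusted p-values below come from a fit without this pairing unless the block, the replicate number added to the fit, is named. Of 12910 genes, 140 were called without the block and 5665 with it. Markers of muscle stem cells such as Pax7, Myod1 and Des were present in each library, and the 7 markers summed to between 93813 and 112051 scaled reads in Cre and between 92447 and 100684 in GFP. Of these 7 markers 0 passed the test (0 at an unadjusted p under 0.05). With the replicate number as a block 2 rose, Myod1 by 0.20 and Des by 0.17 (limma, adjusted p = 0.0425 and 0.0447). With it 3 fell, Myf5 by 0.57, Vcam1 by 0.30 and Pax7 by 0.14 (limma, adjusted p = 0.000124, 0.0019 and 0.0354), where 43.9% of all genes were called. These are bulk libraries, in which fewer cells of a type and less RNA per cell cannot be told apart.

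Pak3, the neuronal group I kinase, was the member with the largest difference among those kept by the filter on low values. Its gene (ENSMUSG00000031284) spans 143518591 to 143797796 of chromosome X on the plus strand of GRCm38. Cre libraries 1 to 4 had 466, 321, 319 and 770 scaled reads of Pak3, and GFP libraries 1 to 4 had 93, 110, 64 and 144. The lowest Cre library was above the highest GFP library. The mean was 469 ± 212 in Cre, against 103 ± 33.4 in GFP (SD, n = 4 each), 4.56 times as high in Cre, with a log2 difference of 2.14 ± 0.34 (SE). The paired differences were 2.31, 1.54, 2.30 and 2.41 log2 units, smallest in pair 2. Libraries 1 and 4 carried 40670 to 49984 scaled reads of Xist, the RNA of the inactive X chromosome, and libraries 2 and 3 carried 2 to 12. In Cre the 2 libraries with high Xist had the most Pak3, while in GFP libraries 1 and 2 lay close together and the Xist split did not separate the values.

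Aatk, the lemur kinase of axons and dendrites, lies on chromosome 11 at 120007313 to 120047145, minus strand (ENSMUSG00000025375). It had 211, 237, 292 and 197 scaled reads in Cre libraries 1 to 4, against 43, 73, 75 and 47 in GFP libraries 1 to 4. No Cre library overlapped a GFP library, and the libraries of each group stood closer together than those of Pak3. Aatk averaged 234 ± 41.9 in Cre, against 59.5 ± 16.8 in GFP (SD, n = 4 each), 3.94 times as high in Cre, and its log2 difference was 1.99 ± 0.24 (SE). The paired differences ran from 1.69 in pair 2 to 2.27 in pair 1. The Aatk gene also holds the hairpin of the microRNA miR-338, which overlaps 0 annotated exons of Aatk and lies inside 6 of its 9 transcripts in GENCODE M21. Its mature sequences are shown because they come from the same strand of the same gene, with the seed (bases 2 to 8) in capitals, and no value for them was analysed here.
mmu-miR-338-3p: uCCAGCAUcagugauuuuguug
mmu-miR-338-5p: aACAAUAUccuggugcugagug

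**Figure D1:**
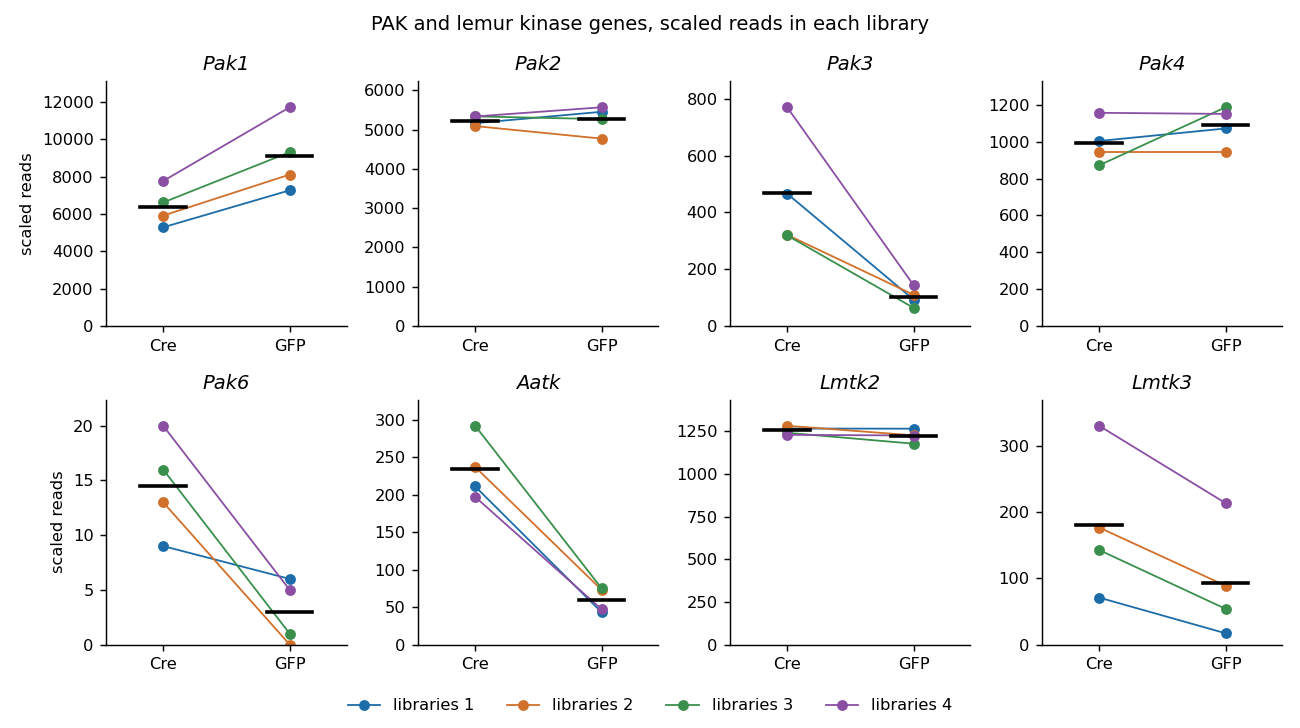
Scaled reads (vertical axis, linear from 0) of the 8 kinase genes in Cre (left) and GFP (right) libraries; lines join same-numbered libraries and black bars are the means of 4. Pak3 and Aatk lie higher in Cre with no overlap, Pak1 lies lower in Cre in each pair, and the lines of Lmtk3 run side by side at very different levels.

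Pak1, the most abundant member, was lower in Cre in each pair, with the most even paired difference of the members apart from Lmtk2. Its gene spans 97788541 to 97912381 of chromosome 7 (plus strand). Cre libraries 1 to 4 had 5286, 5913, 6617 and 7766 scaled reads, and GFP libraries 1 to 4 had 7266, 8110, 9308 and 11714. The groups overlapped, since the highest Cre library was above the lowest GFP library. Within pairs the log2 difference was -0.46, -0.46, -0.49 and -0.59, with an SD of 0.06 over pairs, while the libraries of a group differed among themselves with an SD of 0.27. In both groups the order of the libraries was 1, 2, 3, 4 from lowest to highest, so the libraries of equal number kept the same order of Pak1 in Cre and in GFP. The log2 difference was -0.50 ± 0.17 (SE) without the pairing and -0.50 ± 0.04 with it.

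Pak2, the other group I kinase of muscle, had 5165, 5090, 5337 and 5335 scaled reads in Cre, against 5454, 4771, 5268 and 5569 in GFP (libraries 1 to 4 in order, as for the genes that follow). The groups overlapped almost wholly, and Pak2 was higher in 2 pairs and lower in 2 (log2 difference -0.01 ± 0.07, SE). Pak4, the broadly expressed group II kinase, had 1004, 943, 872 and 1157 in Cre and 1072, 943, 1187 and 1151 in GFP. Its difference of -0.13 ± 0.11 came mostly from pair 3, at -0.44, and pair 2 had equal values. Pak6, a group II kinase described to bind the androgen receptor in human cells, was close to the limit of detection, with 9, 13, 16 and 20 scaled reads in Cre and 6, 0, 1 and 5 in GFP. Pak6 was the member removed by the filter on low values, and each Cre value lay above each GFP value. Its log2 difference changes with the pseudocount, and no size is read from so few reads.

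Among the lemur kinases, Lmtk2 was the most even gene and Lmtk3 the most uneven. Lmtk2 had 1266, 1282, 1241 and 1229 scaled reads in Cre and 1265, 1226, 1177 and 1225 in GFP, with a log2 difference of 0.04 ± 0.06 (SE). Lmtk3, a kinase known from brain and from human breast cancer, had 71, 177, 143 and 331 in Cre and 17, 89, 54 and 214 in GFP. The groups overlapped widely, because the libraries of a group differed by up to 3.58 log2 units in GFP and 2.21 in Cre. In both groups library 1 was lowest, then library 3, library 2 and library 4. Within pairs Lmtk3 was higher in Cre each time, by 2.0, 0.98, 1.39 and 0.63 log2 units. The log2 difference was 1.25 ± 0.75 (SE) without the pairing and 1.25 ± 0.20 with it. Lmtk3 shares part of its start with Sult2b1 on the other strand, which averaged 20.25 scaled reads, and without known strand use reads in that part cannot be assigned. Pak4 lies almost wholly inside the annotated span of Samd4b on the same strand, so its level is uncertain as well.

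**Figure D2:**
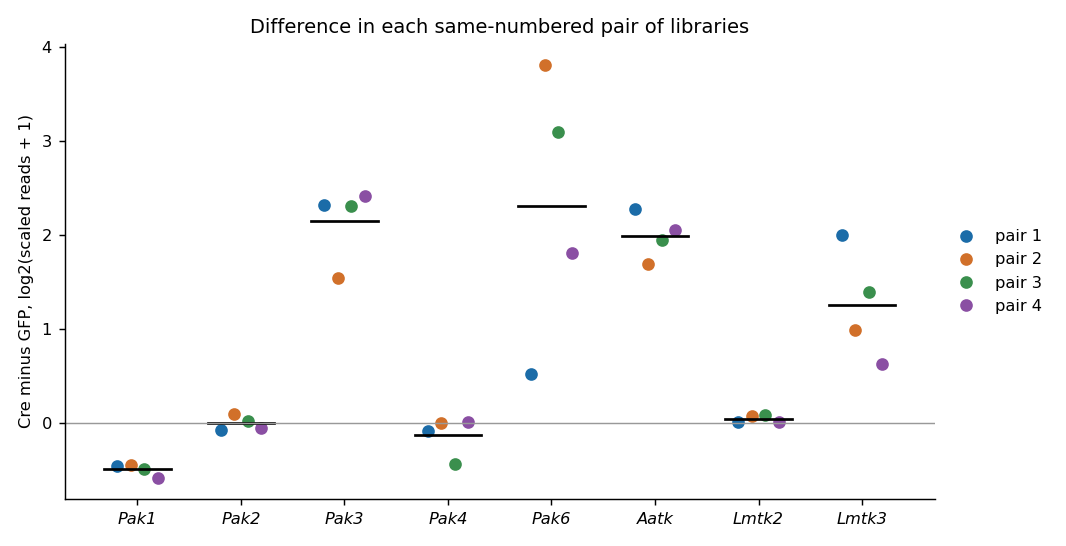
Cre minus GFP difference in log2(scaled reads + 1) for each same-numbered pair of libraries (coloured points) and the mean of 4 pairs (bars). Pak3 and Aatk lie between 1.54 and 2.41 in each pair, Lmtk3 spreads from 0.63 to 2.0, Pak6 rests on at most 20 reads per library, and Pak1 lies between -0.59 and -0.46.

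Of the 8 members, 7 were kept by the filter and 2 of these 7, Pak3 and Aatk, were called higher by limma over all 12910 genes kept, where 1.08% of genes were called (0.837% higher and 0.248% lower in Cre). The 5 relatives that were kept gave 0 calls, and 1 of them had an unadjusted p under 0.05, which 16.7% of all genes had. With the replicate number as a block, Lmtk3 was called higher and Pak1 lower as well, which made 4 of 7, where 43.9% of all genes were called (22.2% higher and 21.7% lower). Groups without overlap were seen in Pak3 and Aatk among the 7, and in 10.6% of all genes kept (4.41% with Cre above GFP and 6.17% with Cre below). Pak3, Aatk, Lmtk2 and Lmtk3 were higher in Cre in 4 of 4 pairs, as were 27.9% of all genes kept, and Pak1 was lower in 4 of 4, as were 27.6%. The rule used this contrast, so nothing is read from these counts. The call of Pak3 was lost with voom and without any single library, and that of Aatk without Cre library 2 or Cre library 3.

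Per kilobase of annotated exon, which allows levels to be compared between genes, the members spanned a wide range. Pak1 stood highest, at 1622 ± 270 scaled reads per kilobase in Cre and 2308 ± 490 in GFP (SD over 4 libraries, as for the levels that follow). Pak2 followed at 770 ± 18.3 in Cre and 775 ± 51.8 in GFP, then Pak4 at 281 ± 34.3 in Cre and 308 ± 30.6 in GFP, and Lmtk2 at 155 ± 2.95 in Cre and 151 ± 4.44 in GFP. These 4 genes did not overlap one another in any library. Pak3 was at 49.1 ± 22.2 in Cre and 10.8 ± 3.5 in GFP, Aatk at 32.7 ± 5.86 in Cre and 8.31 ± 2.35 in GFP, and Lmtk3 at 31.4 ± 19.1 in Cre and 16.3 ± 14.9 in GFP. The ranges of these 3 genes overlapped in both groups, so their order is not set. Pak6 was lowest, at 2.78 ± 0.893 in Cre and 0.576 ± 0.565 in GFP.

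The makeup of each family differed with these levels. Of the summed group I level per kilobase, Pak3 made up 1.98% ± 0.707 in Cre and 0.348% ± 0.0920 in GFP, Pak1 66.2% ± 2.98 in Cre and 74.2% ± 3.60 in GFP, and Pak2 31.8% ± 3.20 in Cre and 25.4% ± 3.60 in GFP (SD over 4 libraries). Pak3 thus stayed the minor group I transcript in each library, at no more than 2.84% in Cre. Among the lemur kinases, Aatk made up 15.0% ± 2.87 in Cre and 4.78% ± 1.5 in GFP, and Lmtk2 71.0% ± 6.10 in Cre and 86.4% ± 7.05 in GFP. Lmtk3 took 14% ± 7.62 in Cre and 8.85% ± 7.42 in GFP. Of all windows of 50 bases in the annotated transcripts of the 8 members, 0 were shared between members. Pak1, Pak3, Aatk and Lmtk2 shared 0 windows with any other gene. For Pak2 3.94% and for Lmtk3 3.25% of windows also occurred in transcripts of another gene.

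Of the genes that act with these kinases or are kinases of neurons, 56 were tested outside the members, and 1 rose and 1 fell in Cre (limma, adjusted over all genes), a share of 3.57% against 1.08% over all genes. Their median log2 difference was 0.09, against -0.00 over all genes kept. With the block 23 rose and 8 fell, 55.4% against 43.9% over all genes. The lists were chosen with earlier results of these data known.

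The GTPases that switch PAKs on did not pass the test: 0 of 6 tested were called (limma; 1 at an unadjusted p under 0.05). Rac1 and Cdc42, the best known activators of PAKs, did not pass: Rac1 had 5856 ± 215 scaled reads in Cre, against 5887 ± 256 in GFP (SD over 4 libraries), and Cdc42 had 15032 ± 1568 in Cre, against 14070 ± 1464 in GFP. Rhoj, a Cdc42-like GTPase known from endothelial cells, had 166 ± 27.0 in Cre and 300.25 ± 70.9 in GFP, with a log2 difference of -0.84 ± 0.19 (SE; limma, adjusted p = 0.0908), and it fell with the block (adjusted p = 0.000186). With the block 3 of the 6 GTPases rose and 1 fell, where 43.9% of all genes were called. Rac2, the GTPase of blood cells, and Rhov were removed by the filter.

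The scaffolds and adaptors that bring PAKs to focal contacts gave 0 calls among 8 tested (1 at an unadjusted p under 0.05). Git2, which forms a complex with the PIX exchange factors and PAK, had 1388 ± 115 in Cre, against 1716 ± 41.4 in GFP (log2 difference -0.31 ± 0.08, SE; limma, adjusted p = 0.106) and was lower in Cre in all 4 pairs. With the block Git2 fell (adjusted p = 0.000892) and Arhgef6, a PIX exchange factor, rose by 0.45 (adjusted p = 0.00374).

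Of 16 PAK substrates and genes of the cofilin pathway, Nf2 fell and 15 did not pass. Nf2 encodes merlin, a tumour suppressor that PAK phosphorylates and that in turn inhibits Pak1. Cre libraries 1 to 4 had 3040, 3368, 3273 and 3399 scaled reads of Nf2, and GFP libraries 1 to 4 had 4377, 3994, 4362 and 4348. The groups did not overlap, and the log2 difference was -0.39 ± 0.06 (SE; limma, adjusted p = 0.0383). Without any single library, or without the filter, Nf2 did not pass (adjusted p up to 0.133 over the 14 alternatives without the block, the lowest being 0.0274). With the block 6 of the 16 rose and 4 fell, where 43.9% of all genes were called. The genes around cofilin went both ways with the block. The LIM kinases, which inactivate cofilin, rose, Limk1 by 0.37 (adjusted p = 0.00198) and Limk2 by 0.16 (adjusted p = 0.0221). Of the slingshot phosphatases, which activate it, Ssh2 rose by 0.17 (adjusted p = 0.0144) and Ssh3 by 0.27 (adjusted p = 0.0052). Ssh1 did not pass (log2 difference 0.07, limma with the block, adjusted p = 0.508). Of the cofilins, Cfl2, the muscle form, rose by 0.15 (adjusted p = 0.0112), and Cfl1, the main non-muscle form, fell by 0.17 (adjusted p = 0.0144). Map2k1, a kinase of the ERK pathway, rose by 0.22 (adjusted p = 0.00227), while Stmn1, a microtubule destabiliser, fell by 0.65 (adjusted p = 0.000421) and Flna, an actin cross-linker, by 0.27 (adjusted p = 0.00166).

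Inhibitors and phosphatases of PAKs gave 0 calls among 4 (1 at an unadjusted p under 0.05). Ppm1f, a phosphatase that removes the activating phosphate of PAKs, had 5114 ± 364 in Cre, against 4397 ± 474 in GFP (SD over 4 libraries; log2 difference 0.22 ± 0.09, SE; limma, adjusted p = 0.282). With the block Ppm1f (adjusted p = 0.00193), its relative Ppm1e (by 0.50, adjusted p = 0.000333) and Nisch (by 0.13, adjusted p = 0.0328) rose. Partners of lemur kinases gave 0 calls among 12 (0 at an unadjusted p under 0.05). The smallest p was that of Klc2, a kinesin light chain, with 1637 ± 153 in Cre and 1403 ± 123 in GFP (log2 difference 0.22 ± 0.10, SE; limma, adjusted p = 0.303, 0.00969 with the block, which was lost without pair 4). With the block 4 partners rose and 2 fell, where 43.9% of all genes were called. Cdk5r1, the p35 activator of the neuronal kinase Cdk5, which binds Aatk, rose by 0.26 (adjusted p = 0.00516), and Cdk5 fell by 0.19 (adjusted p = 0.0175).

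Of 11 other kinases known from neurons, Tnik rose and 10 did not pass. Tnik, a kinase that binds Traf2 and Nck and acts in Wnt signalling and at synapses, had 353, 329, 339 and 361 scaled reads in Cre libraries 1 to 4, against 196, 214, 180 and 208 in GFP libraries 1 to 4. The groups lay far apart and each was tight, with a log2 difference of 0.79 ± 0.11 (SE; limma, adjusted p = 0.0186). The call was lost without any single library except GFP library 4 (adjusted p up to 0.0783; the lowest over the 14 alternatives without the block was 0.019). With the block 6 of the 11 rose and 1 fell, where 43.9% of all genes were called. Among those that rose were Brsk1, a kinase of axon specification (by 0.74, adjusted p = 0.00031), and Mast1, a microtubule-associated kinase (by 0.70, adjusted p = 0.000288).

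**Figure D3:**
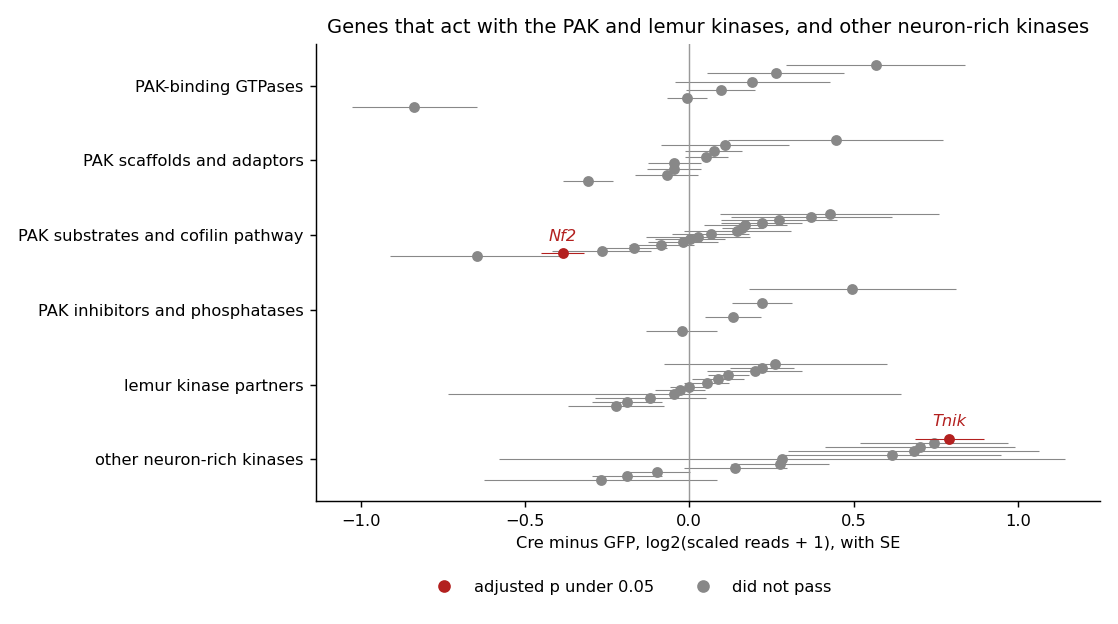
Cre minus GFP difference in log2(scaled reads + 1) with its SE (horizontal axis) for the tested genes of 6 lists, red where the adjusted p was under 0.05 without the block. Nf2 at -0.39 and Tnik at 0.79 are the 2 genes that passed, and most others lie within 0.5 of zero.

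Markers of other cells moved with the groups. Without the block, Rgs5 of the pericyte list rose by 2.08 (limma, adjusted p = 0.0277) and Ly6a of the fibro-adipogenic list rose by 2.35 (limma, adjusted p = 0.0164). Of 13 neuron markers, 11 were analysed, and they summed to between 3550 and 5354 scaled reads in Cre and between 2473 and 4235 in GFP. Of the 6 that were tested 0 passed without the block (1 at an unadjusted p under 0.05) and 4 rose with it, Tubb3 by 1.10, Stmn2 by 1.00, Nefm by 0.60 and Syn1 by 0.32 (limma, adjusted p = 6.81e-05, 6.88e-05, 0.0381 and 0.00421). Snap25, a synapse protein, had 18, 1, 0 and 5 scaled reads in Cre and 25, 0, 0 and 1 in GFP. Syt1, another synapse protein, had 3, 0, 1 and 46 in Cre and 3, 0, 0 and 17 in GFP, and Elavl3 was at 8 or less in all 8 libraries. Both synapse genes were thus near 0 in libraries 2 and 3 and present in library 1 or 4.

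Schwann cell and glia markers (5 of 8 analysed) summed to between 338 and 550 in Cre and between 301 and 492 in GFP, and Ngfr rose with the block by 1.13 (limma, adjusted p = 0.00014). Pericyte markers (5 of 5) summed to between 24589 and 54608 in Cre and between 7436 and 14372 in GFP, most of it Rgs5. Abcc9 lay between 260 and 877 in Cre and between 201 and 779 in GFP, and Cspg4 between 457 and 622 in Cre and between 374 and 510 in GFP. Both rose with the block (by 0.37 and 0.23; limma, adjusted p = 0.00669 and 0.0263), while Kcnj8 had at most 11 reads in Cre and 1 in GFP. Endothelial markers (4 of 5) summed to between 276 and 408 in Cre and between 141 and 182 in GFP. Tek rose with the block by 1.46 (limma, adjusted p = 3.28e-05), Kdr lay between 14 and 46 in Cre and between 2 and 14 in GFP, Pecam1 between 44 and 130 in Cre and between 40 and 102 in GFP, and Cdh5 stood at 9 or less. Fibro-adipogenic markers (4 of 5) summed to between 461 and 725 in Cre and between 174 and 297 in GFP. Pdgfra lay between 95 and 142 in Cre and between 104 and 149 in GFP, and Dcn stood at 1 to 22. Immune markers (3 of 5) summed to between 122 and 455 in Cre and between 51 and 278 in GFP, mostly Cd68, which rose with the block by 1.00 (limma, adjusted p = 0.000369). The part of such cells in the values of Pak3 and Aatk was not tested.

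The genes beside Pak3 and Aatk did not pass the test. The 3 nearest kept genes on each side gave 0 calls of 12 (limma, adjusted over all genes; 0 with voom too; 1 of the 12, Ndufaf8, had an unadjusted p under 0.05). Capn6, a calpain whose gene lies on the other strand with its near edge, the 3′ end, 4.4 kb beyond the end of Pak3, had 73.0 ± 53.1 in Cre, against 63.8 ± 48.0 in GFP (SD over 4 libraries; log2 difference 0.21 ± 0.63, SE; limma, adjusted p = 0.914). Baiap2, which ends 0.53 kb from Aatk and encodes IRSp53, a Rac and Cdc42 effector, had 2244 ± 519 in Cre and 2072 ± 444 in GFP (0.11 ± 0.19; adjusted p = 0.839). The other Pak3 neighbours, Acsl4, Tmem164, Ammecr1, Gm15066 and Alg13, differed by -0.08 to 0.13. Beside Aatk, Rptor and Chmp6 were at -0.10 and -0.09. With the block 3 of the 6 genes beside Aatk were called, where 43.9% of all genes were called, so nothing is read from this count. Cep131, a centrosome protein, fell by 0.30 (adjusted p = 0.00395), and Ndufaf8, an assembly factor of respiratory complex I, fell by 0.44 (adjusted p = 0.00529). Tepsin, an adaptor protein, rose by 0.20 (adjusted p = 0.0203). The Tepsin call was lost without pair 2, 3 or 4 (adjusted p of 0.0528 to 0.0777), and the other 2 calls held without each pair. No gene beside Pak3 was called with the block.

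The genes most like Pak3 over the 8 libraries were found by the root mean square difference of log2 levels after the mean of each gene was subtracted. For Pak3 they were Cacna1h, a T-type calcium channel subunit, at 0.20 log2 units, the interferon-induced helicase gene Ddx60 at 0.26, the non-coding Platr14 at 0.28, Rgs5, a regulator of G-protein signalling, at 0.30 and Tceal6 at 0.33. Ddx60 had 29 to 65 scaled reads in Cre and 6 to 14 in GFP, and it met the filter only through its Cre libraries. For comparison, Pak3 itself had a root mean square of 1.17 around its own mean. Cacna1h had 676, 561, 447 and 916 scaled reads in Cre libraries 1 to 4, against 125, 158, 73 and 159 in GFP libraries 1 to 4, with library 4 highest and library 3 lowest in both groups. Those most like Aatk were the transcription factor gene Maf at 0.31, Laptm5, a lysosomal protein of blood cells, at 0.33, Susd4 at 0.34, Baiap2l2 at 0.35 and the pseudokinase gene Trib2 at 0.36. Maf had 198, 149, 149 and 108 in Cre, against 32, 62, 50 and 24 in GFP, and in both groups library 4 was lowest.

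Pak3 and Aatk shared the difference between the groups, but the order of the libraries within each group differed between them. Their profiles differed by 0.69, which made Aatk number 125 in likeness to Pak3 and Pak3 number 228 in likeness to Aatk. Likeness was ranked among the genes kept, 12910 in all, so both ranks lie near the top. Likeness within the groups alone was not measured. Pak3 was highest in Cre library 4 and Aatk highest in Cre library 3, and in GFP library 3 Pak3 was lowest while Aatk was highest. These likenesses include the difference between the groups by which Pak3 and Aatk were chosen, so they are a description.

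**Figure D4:**
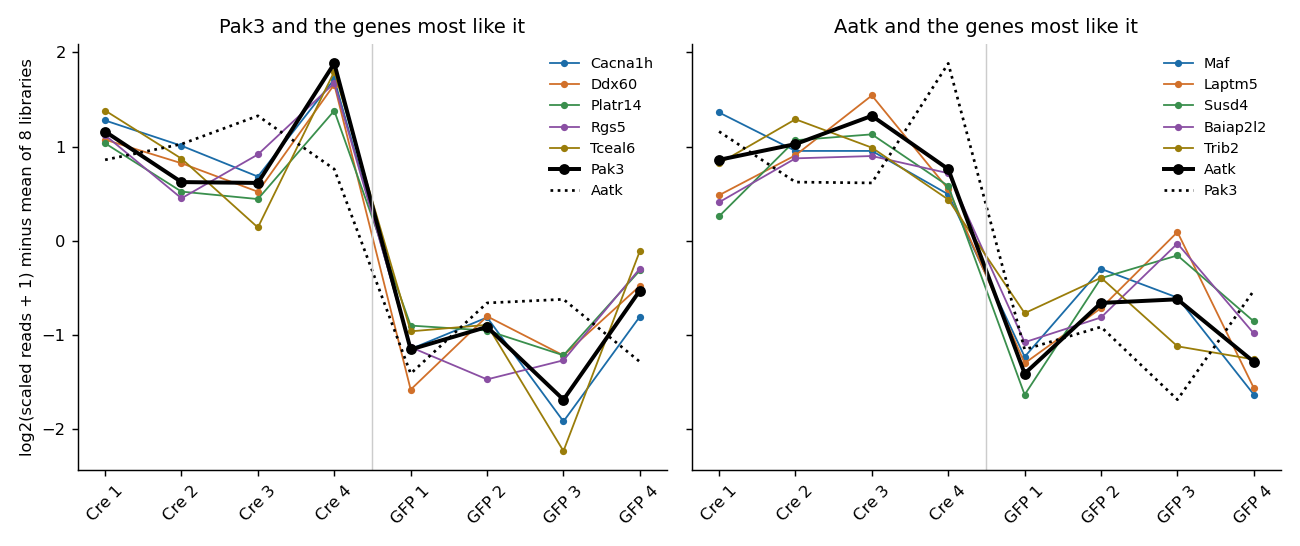
Log2(scaled reads + 1) minus the mean of the 8 libraries (vertical axis) by library, Cre left of GFP, for Pak3 (left panel) and Aatk (right panel) in black, the 5 genes most like each in colour, and the other kinase dotted. Lines join libraries only to guide the eye, and Pak3 peaks in Cre library 4 while Aatk peaks in Cre library 3.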

How the data were processed

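RNA was sequenced from 4 Cre and 4 GFP cultures of mouse muscle stem cells, grouped and numbered by the sample titles. STAR 2.5.3a, featureCounts 1.5.3 from Subread, DESeq, mm10 and GRCm38 are named per the submitters' processing notes, and the library protocol kept strand, per the labels. Strand use in counting, annotation release and filters: not given in the sources used here. The deposited values were handled as a score: whole numbers with totals within a narrow range and with gaps at regular steps, as when the authors' counts are scaled and rounded. Count models were therefore not used, and the test planned for scaled values was.

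Genes with at least 4 libraries at 1 CPM or more, relative to the total of the table, were kept (12910, with 8066 removed) and log2(value + 1) was fitted with limma-trend (limma 3.58.1, R 4.3.3), a scale on which low genes change less. Tests were two-sided, with Benjamini-Hochberg adjustment over all genes kept and a threshold of 0.05. The fits with and without the block were checked on simulated data for the direction and size of known changes. Recovery of the changes was required only of the fit with the block, and no limit was set on false calls. Python 3.11.15 was used for the other steps. The labels do not say what a replicate number shares. Equal numbers had correlated deviations (0.820 to 0.908; other combinations -0.597 to 0.477), so the numbers were taken as pairs, from the data alone. The main fit did not use the pairs. The fit with the replicate block is given beside it for lists and for the genes named with it, not for every gene whose call it changed. P-values measure the spread between these libraries.

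Exon lengths and overlaps came from GENCODE M21 on GRCm38, which held 20941 of the 20976 identifiers, and coordinates of genes are those of the table. Start windows and microRNAs came from RefSeq. Depth was estimated from the spacing of low values, and reads are not independent molecules. The members and lists were chosen with earlier results of these data known. Named genes were the members, Chd4, in each list the genes called (up to 4) or that with the smallest p, the 3 nearest kept genes on each side, and the 5 genes most like Pak3 and Aatk. Rac1, Cdc42, the marker genes and the genes named as called with the block, and those below the filter, were named after their values were seen. Alternatives were the block, a pseudocount of 0.1, no filter or 5 CPM, total-count and upper-quartile rescaling, voom, and leaving out each library or pair.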

Additional observations from a re-analysis of the deposited data

Results flagged for a closer look

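In 74 groups of 4 libraries, from 37 named genes, 4 libraries stood apart by Dixon's test, which compares the gap to the nearest library with the whole range of the group. Chance flags about 1 in 20 groups. None of them was a library of a member. For Rhoj, GFP library 3 was highest with 406 scaled reads against 275 in the next (ratio 0.897), and the log2 difference without it was -0.68. For Nf2, GFP library 2 was lowest with 3994 against 4348 (ratio 0.924). Rptor had its lowest value in GFP library 2, 3180 against 3410 (ratio 0.943). Ndufaf8 had its highest in GFP library 3, 309 against 262 (ratio 0.839).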

How the results depend on the processing

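The direction of Pak1, Pak3, Pak4, Aatk, Lmtk2 and Lmtk3 was the same in each of the 19 alternatives, and that of Pak2 changed. Over the 14 without the block, the log2 difference lay between 1.87 and 2.32 for Pak3 and between 0.62 and 1.82 for Lmtk3. It stayed small for Pak4, between -0.21 and -0.07, and for Lmtk2, between 0.02 and 0.05. The log2 difference of Pak6 was 2.30 with a pseudocount of 1 and 3.37 with 0.1, which follows from the GFP library at 0 reads. Of all genes, 140 were called, 5665 with the replicate block and 85 with a filter of 5 CPM. Leaving out 1 library gave between 11 and 58 calls, and leaving out a pair with the block between 4338 and 5013. Of the 56 pathway genes tested, 2 were called, 31 with the replicate block, 1 without the filter (Tnik), 0 or 1 without any single library (Tnik without GFP library 4), and 26 to 29 without a pair under the block. Among the 12 neighbours 0 were called, 0 without any single library, 3 with the replicate block (43.9% of all genes) and 2 or 3 without a pair under it. Fewer libraries also lower the number of calls. The cause of the other changes was not tested. The block added the calls of Pak1 and Lmtk3 and changed no other member, and Chd4 was called lower in each alternative. Depth limits Pak6 most, at 20 reads or fewer per library.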

Other observations

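Low genes of the same lists that the filter removed were looked at after their values were seen. Camkv, a pseudokinase of synapses, had 8, 20, 28 and 27 scaled reads in Cre, against 0, 2, 4 and 1 in GFP, in the order of libraries 1 to 4 and with no overlap. Rhov, a Cdc42-like GTPase, had 7, 22, 19 and 7 in Cre and 2, 6, 2 and 1 in GFP, likewise with no overlap. Rac2 had 8, 1, 1 and 0 in Cre and 0 in each GFP library. Among the tested neuron-rich kinases, Dclk1, a microtubule-binding kinase, varied most between the libraries of a group, with 1949, 17029, 16450 and 7223 in Cre and 1859, 14589, 13246 and 5027 in GFP. Its libraries 1 were lowest in both groups, as those of Lmtk3 were. With the block Dclk1 rose by 0.28 (limma, adjusted p = 0.00495), where 43.9% of all genes were called.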
